A study of Mus musculus with 2 samples.

Results

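The liver endothelial cells of this series were 273 of 12996 kept droplet barcodes from 2 single-cell RNA libraries of mouse liver. A barcode was kept with at least 1000 UMIs (unique molecular identifiers, each standing for 1 captured transcript) and at most 25% of them from mitochondrial genes. A kept barcode was called endothelial when it held at least 4 UMIs of the 6 rule genes Stab2, Kdr, Clec4g, Ptprb, Egfl7 and Cdh5, with at least 2 of these genes seen, and no UMI of Cd3e, Cd79a, Clec4f, Epcam or Krt19. The cells were thus chosen by the UMIs of these genes, so their levels are given as a description. The label of 1 library is Cebp KO, in which Cebpa, a transcription factor gene, was deleted from hepatocytes by crossing floxed mice with albumin-Cre mice, and that of the other is Cebp WT. Both came from male mice fed a 40% HFCFD, a diet that promotes steatohepatitis, for 2 weeks. The albumin promoter drives Cre in hepatocytes, so the design leaves Cebpa of endothelial cells intact. Livers were perfused and digested in situ and the cells were spun through percoll, and how many animals of what age stood behind a library is not stated in these sources.

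The 2 libraries were deposited as 1 matrix in which barcodes end in suffix 1 or 2, and nothing in the sources used here ties a suffix to a genotype. Values are therefore given by suffix, with 1 library each, no test and no statement on genotype. A level is in CPM, the UMIs of a gene per 1000000 UMIs summed over the cells of a set, followed by its exact Poisson 95% interval, and a share of cells by its exact binomial 95% interval. Neither interval covers more than counting error. The libraries held 60048646 and 52355243 UMIs in 17313 and 15003 barcodes, and 23 kept barcode sequences occurred in both, none of them endothelial in both. Lymphocytes of the same library (750 and 637 barcodes with Cd3e or Cd79a) gave the level that free RNA leaves in droplets of another type, for genes that they do not express themselves.

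Liver sinusoidal endothelial cells line the sinusoids between portal and central veins. They are fenestrated, lack a full basement membrane, and clear waste macromolecules from blood through scavenger receptors such as those encoded by Stab1, Stab2 and Mrc1. They also send signals to hepatocytes, with Wnt2, Wnt9b and Rspo3 produced near the central vein and Efnb2 and Dll4 found toward the portal side.

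Endothelial cells made up 1.56% (1.31 to 1.85) of the kept barcodes with suffix 1 (130 of 8320) and 3.06% (2.58 to 3.59) with suffix 2 (143 of 4676). The intervals did not overlap, but with a minimum of 2000 UMIs the shares were 2.7% (2.23 to 3.23) and 3.36% (2.78 to 4.04), whose intervals do. The median cell held 5047 UMIs with suffix 1 and 4343 with suffix 2, from 1079 to 37426 and from 1051 to 32332. Rule genes gave a median of 45 and 33 UMIs per cell. At the threshold, 4 cells with suffix 1 and none with suffix 2 held exactly 4 rule UMIs, and 7 and 11 kept barcodes just missed it with 3. The clauses against other cell types removed 176 and 253 barcodes that met the endothelial conditions, 167 and 240 of them with a UMI of Clec4f, a Kupffer cell gene. Among barcodes with 1 or 2 Clec4f UMIs, 15 and 22 were removed, and these carried 1987 and 1932 CPM of 20 pan-endothelial genes outside the rule, against 5045 and 5369 CPM in the cells kept.

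The endothelial label was checked with those 20 genes. At least 10 of their UMIs were seen in 101 of 130 cells with suffix 1 and 107 of 143 with suffix 2 (77.7% and 74.8%), against 0 and 2 lymphocytes. Fewer than 3 were seen in 8 and 10 cells, with a median of 1669 and 1535.5 UMIs. Not all of these were shallow: 1 with suffix 2 had 7622 UMIs, 1 UMI of the 20 genes, and 9 of Siglech and 11 of Ccr9, genes of plasmacytoid dendritic cells. Across all genes tested, 8.23% (996 of 12096) were at least 4 times higher in endothelial cells than in lymphocytes of the same library, both in CPM and in UMIs per cell, in both libraries; such genes are called held below. Of the 20 genes 18 were held, with a median ratio of 147 and 132, against 1.18 and 1.23 over all genes. Both libraries thus carried endothelial transcripts far above the level that free RNA left in lymphocytes. The hepatocyte gene Alb, for albumin, was at 14826 and 15864 CPM in endothelial cells and at 13216 and 14214 CPM in lymphocytes, and none of the 10 hepatocyte genes listed was held. Single endothelial cells reached 150367 and 161755 CPM of these 10 genes summed (median 34727 and 41947 CPM). The deepest cells (37426 and 32332 UMIs, 22.1% and 20.9% mitochondrial) held 21 and 13 rule UMIs. Whether such cells hold hepatocyte RNA beyond free RNA was not tested.

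Cebpa itself, the gene deleted in hepatocytes of one genotype, was at 30.7 CPM (19.8 to 45.3) in the suffix 1 library and at 74 CPM (55.3 to 97.1) in the suffix 2 library in endothelial cells. It was seen in 19 of 130 cells and 39 of 143 cells (14.6% and 27.3%). In lymphocytes it was at 4.15 and 25.7 CPM and in 115 and 224 Kupffer cells (at least 3 Clec4f UMIs) at 118 and 160.2 CPM. Endothelial and lymphocyte levels both were higher with suffix 2, and the part of free RNA in the endothelial difference was not tested.

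Of 13 scavenger and endocytic receptor genes tested 9 were held, and of 19 sinusoidal identity genes 18. Bmp2, a ligand that regulates hepatocyte hepcidin, was at 819.5 CPM (759 to 884) in the suffix 1 library and at 670.4 CPM (611 to 734) in the suffix 2 library, while lymphocytes had 0.461 and 0.558 CPM. Ehd3, an endocytic trafficking gene of these cells, was at 1294 and 1141 CPM. Dnase1l3, a secreted nuclease, was at 1105 and 975 CPM. The level of each was alike in both libraries, within a ratio of 1.22. Gpr182, an atypical chemokine receptor gene, was at 599.9 and 463 CPM, and Oit3 at 389 and 322 CPM. F8, the gene of coagulation factor VIII made by liver endothelium, was at 783 and 742 CPM and seen in 86.9% and 90.2% of cells. Gata4, a transcription factor of sinusoidal identity, was at 449 and 399.9 CPM and Maf at 1774 and 1589.8 CPM. All of these were well above lymphocytes, and Maf was also at 908 and 966 CPM in Kupffer cells.

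Among the scavenger receptors, Stab1 was at 453 and 448 CPM and Mrc1, the mannose receptor, at 1256 and 958 CPM. Kupffer cells had Mrc1 at 843 and 1038 CPM, above the endothelial level with suffix 2. Fcgr2b, the inhibitory Fc receptor of sinusoids, was at 763 and 719 CPM, with 3.35 and 1.3 CPM in Kupffer cells. Lyve1, a hyaluronan receptor gene, was at 409 CPM (366 to 455) in the suffix 1 library and at 282 CPM (244 to 324) in the suffix 2 library. Clec1b was at 178 and 122 CPM and Msr1 at 287 and 310.3 CPM, and Kupffer cells had more of both (259 and 352 CPM and 447 and 396 CPM). The summed scavenger list was at 4758 and 4507 CPM and the summed sinusoidal list at 13158 and 11631 CPM. The vascular growth factor receptors were held in 9 of 9 genes tested, with Flt1 at 575 and 605 CPM, Flt4 at 458 and 445 CPM and Tek at 335 and 386 CPM.

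Of 13 vascular endothelial genes tested 10 were held, and of 4 lymphatic list genes tested 3 were held (median ratio 103 and 131, summed level 929.96 and 786 CPM). That list includes Flt4 and Lyve1, which sinusoidal cells also express. Vwf, von Willebrand factor of larger vessels, was at 6.13 CPM (1.99 to 14.3) in the suffix 1 library and at 47 CPM (32.3 to 66) in the suffix 2 library, and Cd34, a capillary gene, at 13.5 and 12.8 CPM. Pdpn and Mmrn1, lymphatic genes, had no UMI in any endothelial cell. Low levels remain possible, as 3 UMIs would stand at only 3.68 and 4.27 CPM. The Aqp1 water channel gene was at 1069.8 and 875 CPM and Gpihbp1, which anchors lipoprotein lipase on capillaries, at 570.5 and 685 CPM. Angiocrine genes were held in 10 of 16 tested, among them Hgf, a hepatocyte growth factor, at 261 CPM (227 to 299) in the suffix 1 library and at 147 CPM (119.7 to 178) in the suffix 2 library, and Bmp6 at 259 and 196 CPM. Wnt2 was at 87.1 and 84 CPM. Of 18 antigen presentation and interferon genes none was held, against 8.23% of all genes tested, and their median ratio over lymphocytes was 0.693 and 0.513. Lymphocytes carried more of this list (8483 and 9570 CPM) than endothelial cells (5554 and 4717 CPM). The limit over lymphocytes thus could not tell whether endothelial cells make these transcripts. Osteopontin, encoded by Spp1, was at 172 and 22.8 CPM in endothelial cells and 282 and 30.1 CPM in lymphocytes, a level at or below the free-RNA background. Its receptor gene Itga9 was at 535 and 611 CPM with 3.46 and 0.558 CPM in lymphocytes, and Kupffer cells had it too (588 and 757 CPM).

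**Figure D1:**
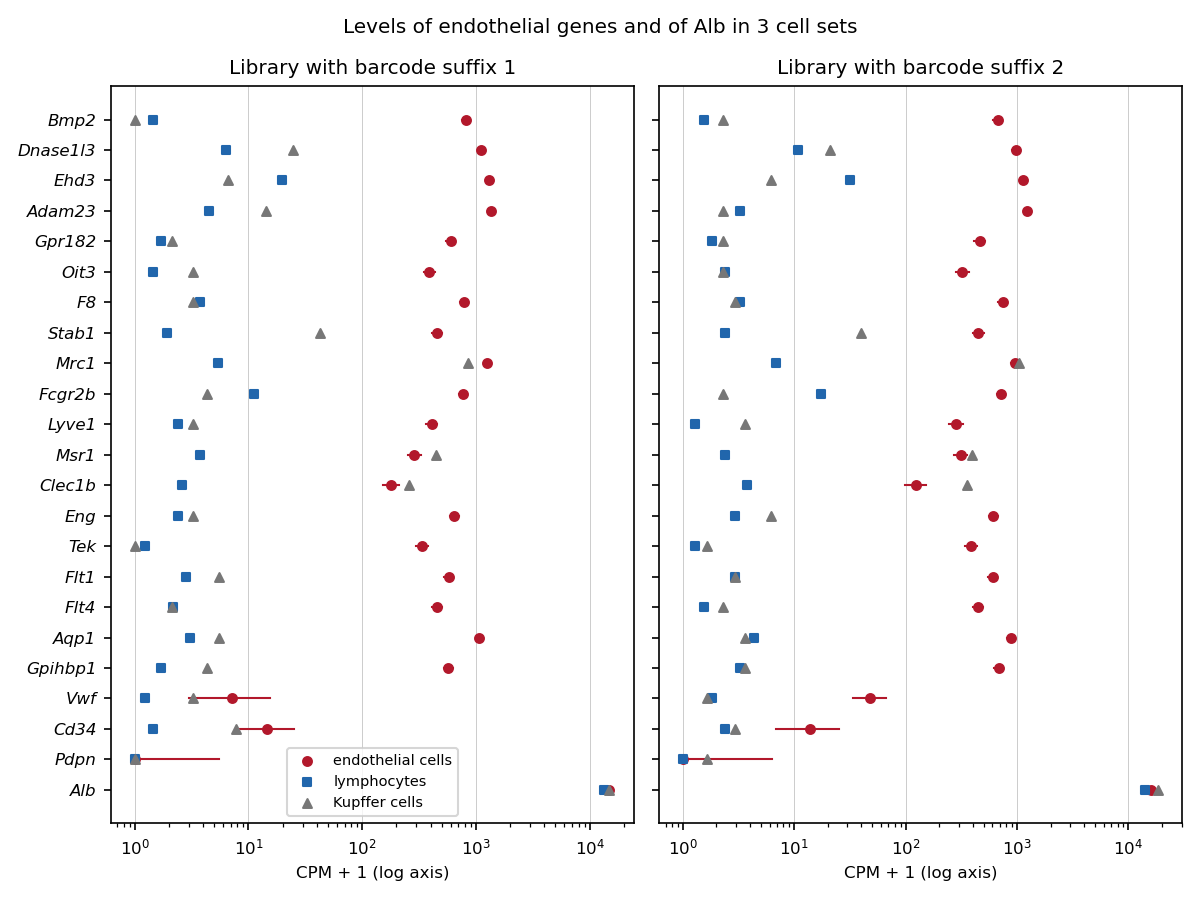
Levels in CPM + 1 on a log axis in endothelial cells (circles, with exact Poisson 95% intervals), lymphocytes (squares) and Kupffer cells (triangles), by library. Sinusoidal genes such as Bmp2 and Gpr182 sit far right of both other sets, Mrc1, Msr1 and Clec1b overlap Kupffer cells, Pdpn is at 0, and Alb is alike in all 3 sets.

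The 20 genes outside the rule with the highest ratio over lymphocytes, taken from 1656 eligible genes, taking the smaller of the ratios of both libraries, were led by Sema6a at 790.4 times, at 907 and 839.7 CPM, a guidance molecule gene. Fbxl7, Ldb2, Bmp2 and Cyyr1 followed, at 608, 493, 484 and 387 times. The remaining 15 (Adgrl4, Adgrf5, Tek, Adam23, Stox2, Ntn4, Hspg2, Gpr182, Meis2, Flt4, Pcdh17, Plekhg1, Timp3, Jam2 and Tspan7) ran down to 239.8 times. They include growth factor and adhesion receptors (Tek, Flt4, Jam2), basement membrane and guidance genes (Hspg2, Ntn4) and transcription factor or cofactor genes (Meis2, Ldb2). Bmp2 was annotated at chr2:133552159-133562885, plus strand and Gpr182 at chr10:127747276-127751732, minus strand (GRCm38).

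ETS transcription factors bind a core that often reads AGGAAG, and endothelial genes are a classical target. Among the 250 bases before the gene start (RefSeq, GRCm38.p6), AGGAAG or its reverse complement CTTCCT was present in 7879 of 27025 promoters (29.2%), in 6 of 11 of the pan-endothelial genes with a promoter in the table (54.5%), in 5 of 13 sinusoidal identity genes (38.5%) and in 6 of 15 of the 20 genes above (40%). A match is a description of letters, not a site. Eng, Emcn and Flt1, endothelial genes held in both libraries that carry 2 matches each, are shown in the direction of transcription with the matches in capitals. The matches start at -52 and -6 for Eng, at -174 and -93 for Emcn and at -129 and -53 for Flt1, counted from the gene start. The Eng segment is chr2:32646345-32646594 on the plus strand, the Emcn segment chr3:137340828-137341077 on the plus strand and the Flt1 segment chr5:147726012-147726261 on the minus strand.
Eng: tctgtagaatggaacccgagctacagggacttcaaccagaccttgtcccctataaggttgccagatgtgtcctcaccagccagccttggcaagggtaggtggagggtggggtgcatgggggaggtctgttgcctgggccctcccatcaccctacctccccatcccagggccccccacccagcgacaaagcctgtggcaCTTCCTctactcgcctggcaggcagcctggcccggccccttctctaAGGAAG
Emcn: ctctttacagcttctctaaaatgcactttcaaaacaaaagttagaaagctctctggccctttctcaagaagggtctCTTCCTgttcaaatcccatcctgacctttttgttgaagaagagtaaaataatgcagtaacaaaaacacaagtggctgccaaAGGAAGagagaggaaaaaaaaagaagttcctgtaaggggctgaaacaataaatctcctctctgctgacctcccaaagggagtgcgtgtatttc
Flt1: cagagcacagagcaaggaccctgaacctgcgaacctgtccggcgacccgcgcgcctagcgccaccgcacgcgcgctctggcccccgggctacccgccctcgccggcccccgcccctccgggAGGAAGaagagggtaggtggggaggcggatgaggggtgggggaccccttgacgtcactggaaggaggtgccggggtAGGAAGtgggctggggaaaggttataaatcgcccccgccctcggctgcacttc
Eng, an endothelial TGF-beta coreceptor gene, was at 645 and 613 CPM, and lymphocytes had 1.38 and 1.95 CPM.

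Sinusoidal cells, with a UMI of Stab2 or Clec4g, were 126 of 130 cells with suffix 1 (96.9%, 92.3 to 99.2) and 135 of 143 with suffix 2 (94.4%, 89.3 to 97.6). Stab2 (chr10:86841198-87008025) was at 1978 and 1553 CPM and Clec4g (chr8:3707064-3720651) at 949.6 and 771 CPM over all endothelial cells. The 12 other cells were few and mixed. In 5 of them Rspo3, a central vein Wnt amplifier, had UMIs, and in 4 of the 8 with suffix 2 Adgrg6 had. A further 2 carried Siglech, Ccr9 and Tcf4. At least 10 UMIs of Siglech and Ccr9 together were held by 4 and 2 endothelial cells in all, of which 3 and 1 counted as sinusoidal. Another cell with suffix 1 had 25374 UMIs and 911 of Alb. Of 28 eligible genes the 15 highest in other over sinusoidal cells were led by Utrn, Esd and Malat1 at 2.28, 2.17 and 1.97 times in CPM pooled over both libraries. In this pooled sum the cell rich in Alb (25374 UMIs) and the 2 with Siglech (10344 and 7622 UMIs) weigh most. The others of the 12 had 6248 UMIs or fewer. Utrn was at 246 CPM in other cells against 219 in sinusoidal cells with suffix 1 and at 820.5 against 239 with suffix 2, so its rank rested on suffix 2. The 15 genes included the plasmacytoid gene Bst2, Tcf4 and the hepatocyte genes Apoc4, Apoh and Kng1. Tcf4 had 58 and 29 UMIs in the 2 cells with Siglech and Ccr9, and was also seen in cells without them, at up to 6 UMIs.

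**Figure D2:**
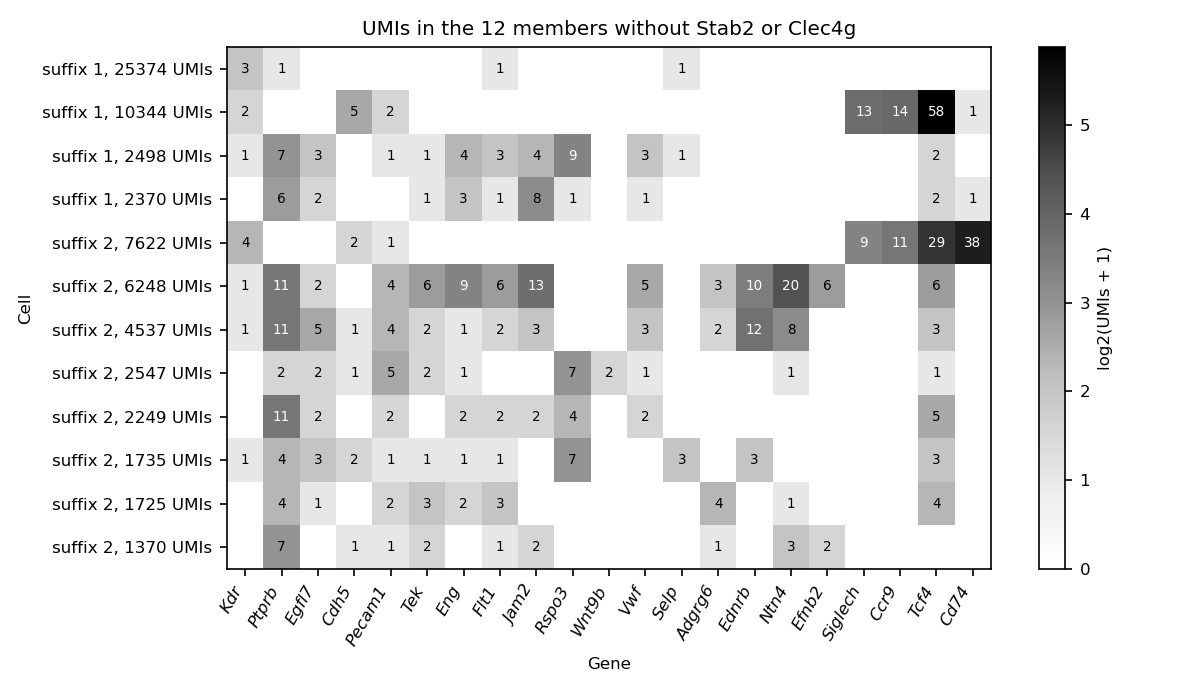
UMIs of named genes in the 12 endothelial cells without Stab2 or Clec4g, one row per cell with its suffix and UMI total, shaded by log2(UMIs + 1). Ptprb is seen in 10 of the rows at up to 11 UMIs, Rspo3 and Adgrg6 do not occur in the same cell, and the 2 rows with Siglech and Ccr9 hold few vascular UMIs.

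The cells were split by seed genes chosen for zone. Central-only cells had a UMI of Wnt2, Wnt9b or Rspo3 and none of Efnb2 or Dll4, and portal-only cells the reverse. There were 16 and 21 central-only cells, 55 and 59 portal-only cells, 19 and 19 with both and 40 and 44 with neither. Central-only cells held 120081 and 72838 UMIs in sum, against 308450 and 319931 in portal-only cells, and the median central-only cell was deeper than the median portal-only cell with suffix 1 (6045.5 and 4942 UMIs) and shallower with suffix 2 (2547 and 4647 UMIs). Of genes of at least 100 CPM, 1.7% (34 of 1996) were at least 2 times higher in central-only cells in both libraries and 0.351% (7 of 1996) in portal-only cells. Those ratios had 3 UMIs added to each sum, which weighs more in the smaller central-only sums: it raises low ratios of central over portal and lowers the highest, such as that of Cdh13. With no UMIs added, an alternative chosen after these values were seen, 28 genes were central (1.4%) and 19 portal (0.952%), so no excess of central genes is read from the counts. Of 5 pericentral list genes tested outside the seeds 3 were central in both libraries, or 2 with no UMIs added, and of 5 periportal genes 3 were portal in both either way. The split uses UMIs of the same cells, so differences are a description.

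Cdh13, a cadherin gene, was at 425 and 1332 CPM in central-only cells against 64.8 and 150.03 CPM in portal-only cells. Kit, the stem cell factor receptor, was at 175 and 124 CPM in central-only cells against 45.4 and 31.3 CPM in portal-only cells. Ptgs1, a prostaglandin synthase, was at 192 and 137 CPM in central-only cells against 51.9 and 78.1 CPM in portal-only cells. Cdh13 and Kit passed 2-fold in both libraries with and without added UMIs, whereas the CPM ratio of Ptgs1 with suffix 2 was 1.76 with none added. Thbd, thrombomodulin, was at 149.9 and 124 CPM in central-only cells against 25.9 and 87.5 CPM in portal-only cells, past 2-fold with suffix 1 but not with suffix 2. On the portal side, Ednrb, an endothelin receptor gene, was at 8.33 and 41.2 CPM in central-only cells (1 and 3 UMIs) against 217 and 444 CPM in portal-only cells. Ntn4, a netrin, was at 133 and 137 CPM in central-only cells against 606 and 881 CPM in portal-only cells. Efnb1, an ephrin ligand, was at 41.6 and 54.9 CPM in central-only cells (5 and 4 UMIs) against 217 and 356 CPM in portal-only cells. Msr1 was at 175 and 27.5 CPM in central-only cells (21 and 2 UMIs) against 473 and 438 CPM in portal-only cells. Esm1, Osmr and Ldb2 completed the 7 portal genes, and all 7 also passed with no UMIs added. Mecom, at 58.3 and 41.2 CPM in central-only cells against 126 and 303 CPM in portal-only cells, passed on the portal side only with none added. With suffix 2, portal-only cells held 79 of the 96 Adgrg6 UMIs, and their Stab2 was at 931 CPM against 2567 CPM in central-only cells. Cells with an Adgrg6 UMI, described below, held 143 of the 168 Ednrb and 95 of the 125 Mecom UMIs with suffix 2. With suffix 1 they held 13 of 96 and 17 of 56. The part of these cells in the portal values was not tested. The scavenger receptor gene Stab1 was at 749 and 810.02 CPM in central-only cells against 383 and 350.1 CPM in portal-only cells, and Adam23, an adhesion protein gene, at 1016 and 783 CPM in central-only cells against 1845 and 1435 CPM in portal-only cells. Bmp2 and Dnase1l3 did not pass 2-fold in either direction. The 34 central genes also held genes of haematopoietic cells, among them Cd74, H2-Aa, Mpeg1, Fcer1g, Tyrobp, Cybb, Cyba, Prkcb and Lcp1, the last not with no UMIs added. They were not counted against a fixed list, and the part of other cells in these central values was not tested.

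**Figure D3:**
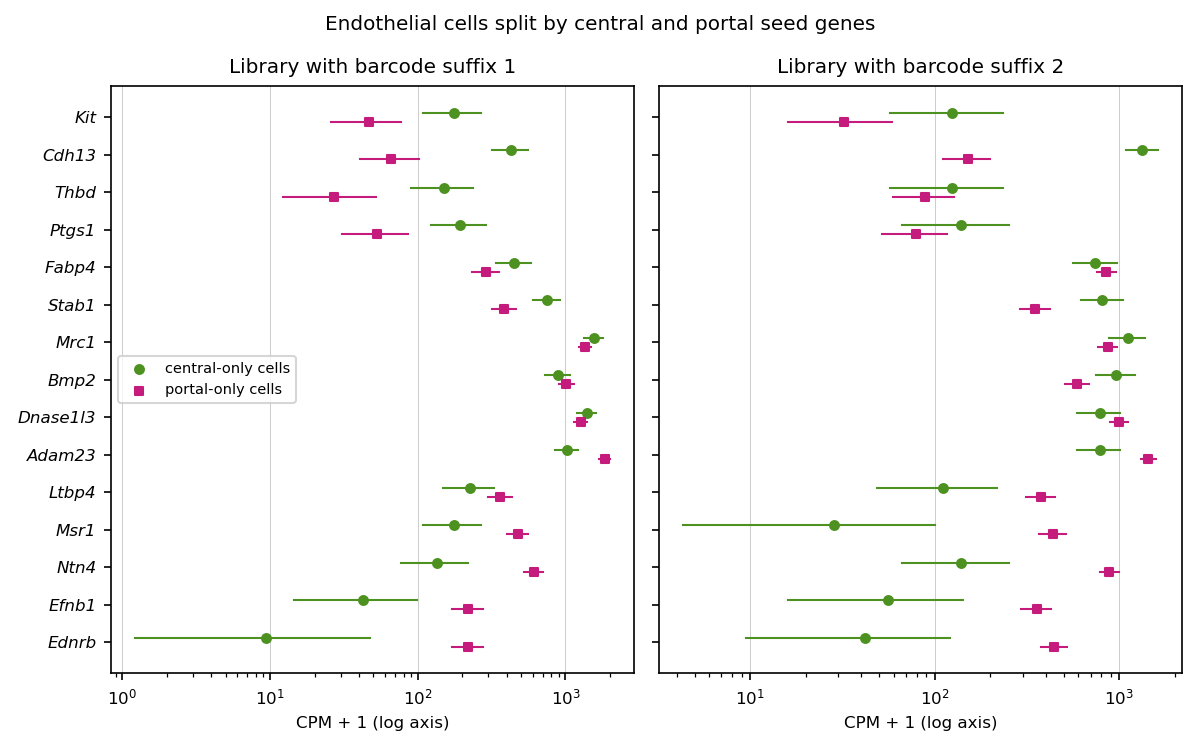
Levels in CPM + 1 on log axes with exact Poisson 95% intervals in central-only (circles) and portal-only (squares) endothelial cells, by library. Kit and Cdh13 lie higher in central-only cells and Ednrb, Ntn4 and Efnb1 higher in portal-only cells of both libraries, while Mrc1, Bmp2 and Dnase1l3 lie within 2-fold, Bmp2 with intervals that do not overlap in suffix 2. Ednrb rests on 1 and 3 UMIs in central-only cells.

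Between the libraries, levels were close for most genes. Here a gene counts as held when it passed the 4-fold limit over lymphocytes in the library where it was higher. Over all 2079 genes that reached 100 CPM with suffix 1 or 2, 28 were at least 2 times higher with suffix 1 (1.35%) and 23 with suffix 2 (1.11%). Of the 472 held ones 5 (1.06%) and 8 (1.69%) were, but a gene could enter these 472 through the library where it was high, so these 2 counts only list the genes described below and nothing is read from their shares. Cd5l, C1qa and C1qb, macrophage genes that entered in this way, are 3 of the 5. None of 18 sinusoidal identity genes and none of 16 pan-endothelial genes tested passed 2-fold, and the median ratio of all genes was 1.03. Cdh13 and Fabp4, the 2 genes of the pericentral list that reached 100 CPM, were higher with suffix 2, but Fabp4 did not separate by zone here, at 449.7 and 741 CPM in central-only cells against 289 and 850.2 CPM in portal-only cells. Some cells held at least 10 UMIs of a list of another cell type (Kupffer, T or NK, B, stellate, neutrophil, dendritic or platelet) or of Siglech and Ccr9 together, 9 with suffix 1 and 12 with suffix 2, and the ratios of the named genes were computed again without them. Hepatocyte and erythroid genes were no ground for leaving a cell out. The 7 lists include Cst3, a broadly expressed protease inhibitor gene, and 6 of the 12 cells with suffix 2 were left out only through Cst3. The ratios were therefore also computed with Cst3 taken out of the lists, which leaves out 9 and 6 cells; this second definition was chosen after the first gave its values, and both are given for the genes named.

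Adgrg6, an adhesion G protein-coupled receptor gene (chr10:14402583-14545659, minus strand), was at 9.81 CPM (4.24 to 19.3) in the suffix 1 library and at 137 CPM (111 to 167) in the suffix 2 library, 10.4 times higher with suffix 2. It was seen in 5 of 130 cells (3.85%, 1.26 to 8.75) and 26 of 143 cells (18.2%, 12.2 to 25.5), and after thinning to 1000 UMIs in 1.54% and 7.69%. In lymphocytes its share was 0.533% and 0.314%; a level above lymphocytes was part of the rule that named the gene. Without the cells with other-type UMIs the ratio was 7.51, and 9.84 with Cst3 taken out of the lists. Nrg1, a neuregulin gene, was at 6.13 CPM (1.99 to 14.3) in the suffix 1 library and at 131 CPM (106 to 161) in the suffix 2 library, 13.8 times higher, but 2 cells held 35 and 33 of its 92 UMIs with suffix 2. Its ratio was 1.77 without the cells with other-type UMIs and 13 with Cst3 taken out, because the 6 cells that only Cst3 removes carried 83 of the 92 UMIs. The same 6 cells held 66 UMIs of Cst3, 48 of Mecom, 29 of Adgrg6, 4 of Stab2 and none of Kit. The Nrg1 difference rested on them, and whether they hold RNA of another cell type was not tested.

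Cyp26b1, a retinoic acid degrading enzyme (chr6:84571414-84593908, minus strand), was at 42.9 CPM (29.9 to 59.7) in the suffix 1 library and at 161 CPM (133 to 193) in the suffix 2 library, 3.54 times higher with suffix 2, and 4.24 and 3.96 times under the 2 definitions. Mecom, a transcription factor gene of arterial cells, was at 68.7 and 178 CPM, 2.52 times higher, with ratios of 1.61 and 2.39. The first of these ratios is under 2. In cells without an Adgrg6 UMI, described below, Mecom was at 49.6 and 58.1 CPM. Fabp4, a fatty acid binding protein of capillaries, was at 320.2 and 702 CPM, 2.18 times higher, with ratios of 2.04 and 2.14. Cdh4 was 2.12, Cdh13 2.02 and Ednrb 2 times higher, and each moved to 1.98, 1.82 and 1.64 without the first set of cells and to 2.18, 1.96 and 2 without the second. Efnb1 and Pde1c, the other 2 of the 10 genes named in this direction, were 1.89 and 1.85 times higher. Efnb1 was at 1.84 and 2.03 times under the 2 definitions, past 2-fold under the second, and Pde1c at 1.73 and 1.76.

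In the other direction, none of the 9 listed antigen presentation and interferon genes that reached 100 CPM passed 2-fold (median ratio 1.11). Single interferon-response genes are given here as values; of the 5 named in this paragraph only Ifi44 over all cells passed both the 2-fold and the 100 CPM limit. Ifi44 was at 180.3 CPM (152 to 212) in the suffix 1 library and at 65.5 CPM (47.9 to 87.3) in the suffix 2 library, 2.64 times higher, and was seen in 60 and 26 cells (46.2% and 18.2%). Irf7, a transcription factor gene of this response (chr7:141262706-141266481, minus strand), was at 96.9 CPM (76.7 to 121) in the suffix 1 library and at 22.8 CPM (13 to 37) in the suffix 2 library, 3.72 times higher. Rsad2 was at 1.97, Oasl2 at 1.72 and Ifit3 at 1.59 times. Without the cells with other-type UMIs the ratios of Ifi44, Irf7, Rsad2, Oasl2 and Ifit3 were 3.25, 3.98, 2.08, 2.05 and 3.58, and with Cst3 taken out 3.33, 3.58, 2.21, 1.96 and 2.79. In lymphocytes the ratio of Irf7 was 0.972 and of Ifit3 1.08. Oasl2 is outside the lists and was named after its values were seen. Irf7 in endothelial cells with suffix 2 was under the lymphocyte level (36.8 CPM). Hgf was 1.76 times higher with suffix 1, and 1.71 and 1.77 times under the 2 definitions. Gm4951, Tmtc2 and Ccnd1 were at 1.9, 1.78 and 1.77 times, at 1.98, 1.84 and 1.82 under the first definition and at 2.06, 1.98 and 1.94 under the second. The C1q genes, Cd5l and Dcn were also higher with suffix 1, at 5.84 times for C1qa, 4.43 for C1qb, 7.23 for Cd5l and 2.25 for Dcn, and came down to 0.648, 0.466, 1.07 and 0.686 without the cells with other-type UMIs, and to 0.699, 0.503, 1.09 and 0.707 with Cst3 taken out. These 4 genes are on the lists that chose the cells left out, so that selection fixed their lower ratios. For Cd5l, C1qa and C1qb 2 cells held most of the UMIs (80 and 52 of 148 for Cd5l), and for Dcn 1 cell held 94 of 112. Erythroid genes had 6575 UMIs with suffix 1, 4539 of them in 1 cell, and 85 with suffix 2.

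**Figure D4:**
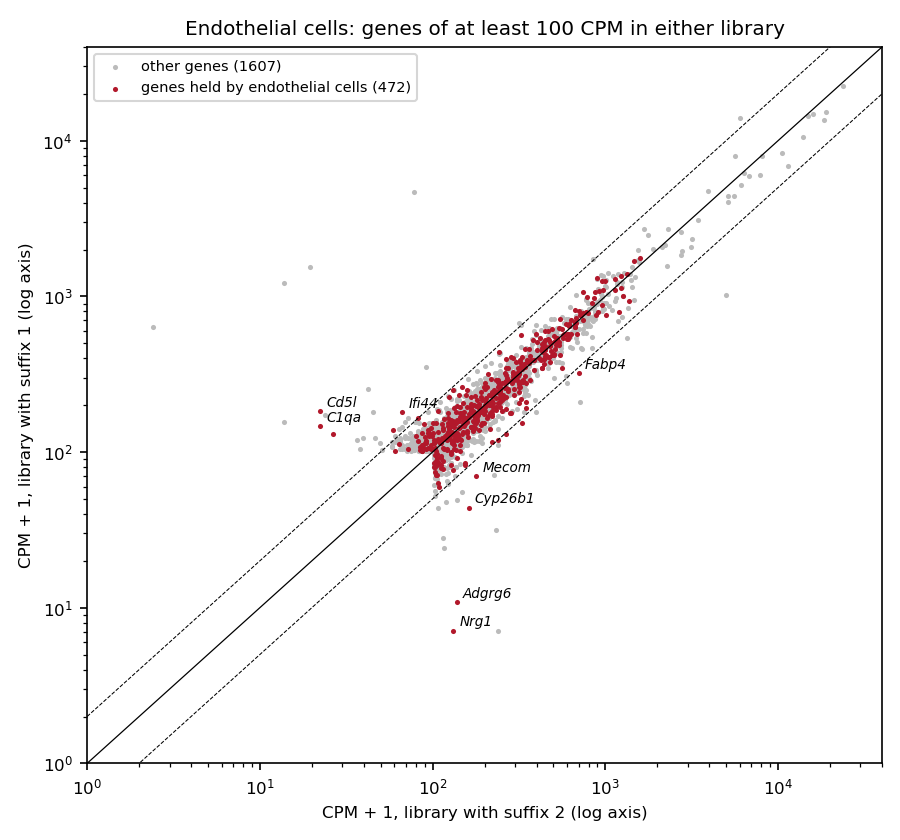
Level in the suffix 1 library against the suffix 2 library, in CPM + 1 on log axes, for genes that reach 100 CPM in one of them; red points are the 472 held genes and dashed lines mark a 2-fold difference. Most points lie along the diagonal, with Adgrg6, Nrg1 and Cyp26b1 higher with suffix 2 and Cd5l, C1qa and Ifi44 higher with suffix 1.

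**Figure D5:**
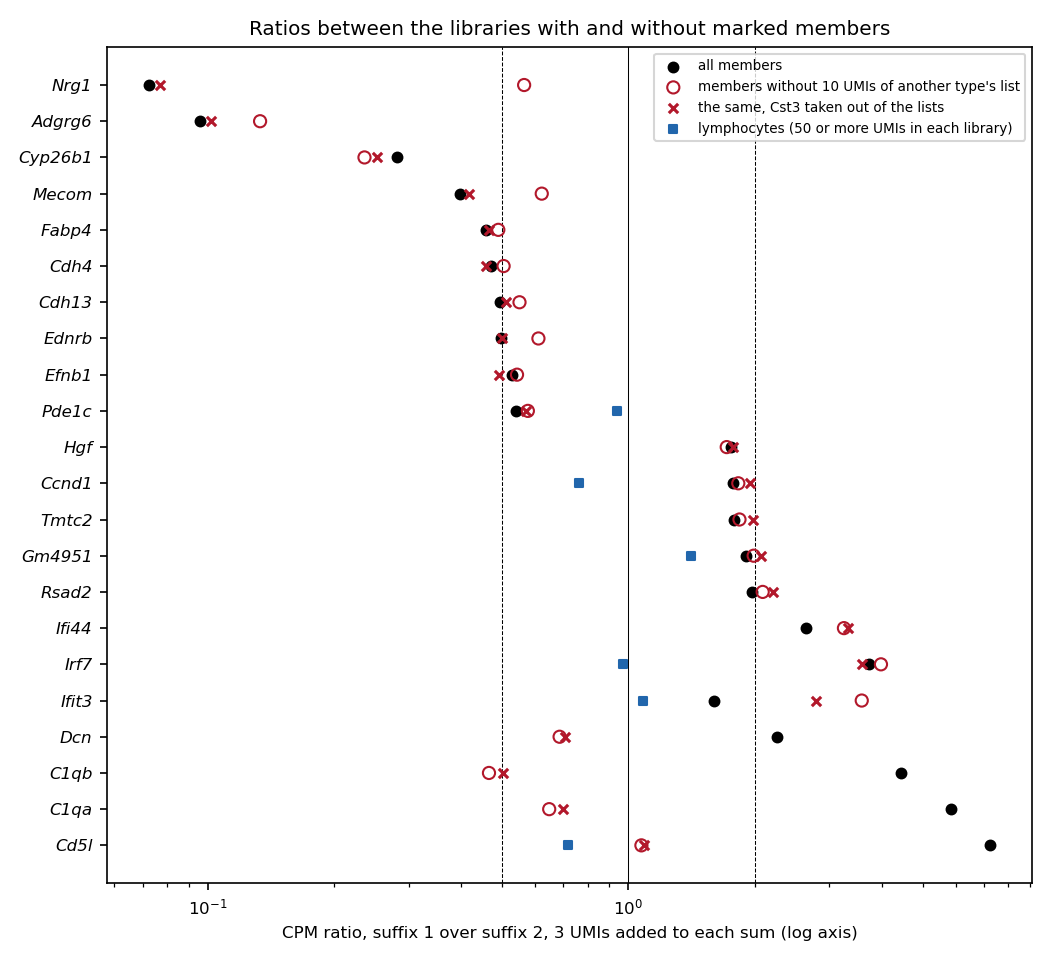
Ratio of suffix 1 over suffix 2 CPM on a log axis for 22 genes, over all cells (filled), without cells that hold 10 UMIs of another cell type's list (open) and the same with Cst3 taken out of the lists (crosses), with lymphocytes as squares where each library has 50 UMIs. Adgrg6, Cyp26b1, Fabp4, Ifi44 and Irf7 stay past 2-fold in all 3 sets. Cd5l, C1qa, C1qb and Dcn, which are themselves on the lists, do not, and Nrg1 depends on the Cst3 cells.

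Cells with an Adgrg6 UMI, a set chosen after its values were seen, had a median of 5383.5 UMIs with suffix 2, against 4052 for the rest. In suffix 2 they carried less Stab2 (252 against 2022 CPM) and more Ednrb (768 against 48.4 CPM), Mecom (510.1 against 58.1 CPM), Ntn4 (1068 against 379.6 CPM), Efnb1 (467 against 132 CPM) and Vwf (139.6 against 13.6 CPM). The 5 cells with suffix 1 had less Stab2 too (419.9 against 2034 CPM), and more Mecom (595 against 49.6 CPM) and Efnb1 (629.9 against 96.6 CPM). Vwf had no UMI in the 5 cells with suffix 1, where its exact Poisson interval reached 129 CPM and so could not tell them from the rest. Their Clec4g (875 against 952 CPM), Oit3 (385 against 389 CPM) and Lyve1 (595 against 402 CPM) were not low. With suffix 2 the same genes were at 365 against 918 CPM for Clec4g, 145 against 385 CPM for Oit3 and 166 against 323 CPM for Lyve1. In cells without an Adgrg6 UMI, Nrg1 was at 5.09 and 3.87 CPM, Efnb1 at 96.6 and 132 CPM and Stab2 at 2034 and 2022 CPM. Ednrb was higher with suffix 1 there (106 and 48.4 CPM), and Cdh13 stayed higher with suffix 2 (135 and 292 CPM). The suffix 2 excess of Mecom, Nrg1 and Ednrb over all cells thus lay largely in the 5 and 26 cells with Adgrg6. What set their number was not tested. The 6 and 12 cells with Rspo3, also chosen after their values were seen, had a median of 4589 and 2419 UMIs against 5047 and 4440 in the rest. They had more Cdh13 (422 against 116 CPM with suffix 1 and 1512 against 199 CPM with suffix 2). Wnt2 was at 184.7 CPM (74.2 to 380.5) against 82.3 CPM (63.4 to 105) with suffix 1, from 7 UMIs and with overlapping intervals, and at 364 CPM (194 to 622) against 69 CPM (50.5 to 92) with suffix 2. Cycling cells, with at least 3 of 8 cell cycle genes seen, were 3 of 130 (2.31%, 0.478 to 6.6) and 1 of 143 (0.699%, 0.0177 to 3.83), and the intervals overlapped.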

How the data were processed

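Liver cells of 2 mouse samples were profiled with 10x Genomics 3' chemistry. Per the labels, the authors used bcl2fastq 2.20.0, Cell Ranger 7.1.0 and STAR 2.7.2a with the mm10 build, and deposited 1 matrix of raw UMI counts of 32285 genes for 32316 barcodes, not normalised. Summed counts were used as CPM, with Python 3.11.15, numpy 2.4.6 and scipy 1.17.1. Depth and the range of UMIs stand with the values. 3 UMIs were added to each sum in a ratio. Scripts were tested on simulated data. No cells were clustered and no doublet caller was run; cells with other-type genes were counted and left out in alternatives. Endothelial cells are not sample replicates, so no test was made. The members and gene lists were chosen with earlier results of these data known. Named genes were those of fixed lists, the 20 highest over lymphocytes, the 10 highest and lowest ratios between libraries among held genes of at least 100 CPM without mitochondrial, ribosomal and haemoglobin genes, and 15 genes of other over sinusoidal cells. Genes of the files were matched to the GRCm38 annotation by identifier, and promoters to RefSeq by symbol. The listed symbols Fcn3 and Ctgf were not among the measured genes, and another listed gene, which was measured, is not reported here.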

Additional observations from a re-analysis of the deposited data

Results flagged for a closer look

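Barcodes outside the kept set also met the endothelial gene conditions. Over the 25% mitochondrial limit there were 25 of 5034 with suffix 1 (0.497%, 0.322 to 0.732) and 49 of 8719 with suffix 2 (0.562%, 0.416 to 0.742), of which 23 and 42 had Stab2 or Clec4g. They lie outside the kept set, part of them entered only the alternative with a 50% mitochondrial limit, and they number more than the 3 barcodes that a count of 0 allows, which is a low bar. Their median mitochondrial share was 41.4% and 51.04%, and the pan-endothelial list was at 939 and 1797 CPM. Under 1000 UMIs there were 1 of 3312 and 2 of 1414 such barcodes, which does not exceed 3.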

How the results depend on the processing

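No paired analysis was possible because each genotype has 1 library. Of 130 alternative values 76 kept their side, 38 moved, 7 became smaller and 9 larger; where 2 values follow, they are suffix 1 then 2. The endothelial share was 1.13% and 2.38% at 500 UMIs, 2.7% and 3.36% at 2000 UMIs, 1.98% (suffix 2) at a 50% mitochondrial limit, and 0.877% and 1.5% without cells of 2 or more other-type UMIs, 23 of which in each library were removed by Cst3 alone. The sinusoidal share was 92.3% and 88.1% at 2 UMIs of Stab2 and Clec4g, and 86.9% and 77.6% thinned to 1000 UMIs. Held genes numbered 649 at 8-fold and 614 against Kupffer cells. Past 2-fold, all genes numbered 54 and 36 at a 10% mitochondrial limit, 44 and 40 without cells of 2 or more other-type UMIs, and 186 and 170 from 20 CPM. Held genes numbered 10 (suffix 1) at the 10% limit, 39 and 41 from 20 CPM, 2 (suffix 1) as a mean over cells and without the 5 deepest cells, and 5 (suffix 2) at 6 rule UMIs, with up to 2 Clec4f UMIs, and in sinusoidal cells alone. Summed CPM of the lists moved to sinusoidal identity 14459 and 12467, scavenger 5260.3 and 4972, pericentral 873 and 1616, periportal 3285 and 3280.3 as a mean over cells, to sinusoidal identity 13749 and 11954, scavenger 4989 (suffix 1), periportal 2720.4 (suffix 1) in sinusoidal cells, to sinusoidal identity 15873 and 13769, scavenger 5856 and 5746, pericentral 1028 and 1727, periportal 3468 and 3229.9 without cells of other-type UMIs, and to sinusoidal identity 12090.3 and 10452, scavenger 4399 and 3978, pericentral 708 and 1167, periportal 2341 and 2666 with up to 2 Clec4f UMIs. The pericentral and periportal sums were 799 and 1373, and 2586 and 3034 CPM as reported, and the periportal order of the libraries turned as a mean over cells and without cells of other-type UMIs. The causes were not tested. The Kupffer comparison, the deepest cells, the Clec4f allowance, the zone ratios with no UMIs added, and both ways of leaving out cells with 10 or more other-type UMIs were chosen after seeing the data. The Nrg1 and Mecom ratios depend on which of these 2 ways is used. With 130 and 143 cells, a gene with 3 UMIs or fewer could not be told from 0.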
